A study of Mus musculus with 9 samples.

Results

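A set of 9 genes of the hormone systems that act on the heart was followed: the alpha-1 adrenergic receptors Adra1a, Adra1b and Adra1d, the beta-1 adrenergic receptor Adrb1, the angiotensin receptor Agtr1a with the angiotensin precursor Agt and the converting enzyme Ace, and the natriuretic peptide receptors Npr1 and Npr3. They were picked by gene name, not by a measured value, and all 9 were present among the 13646 genes listed in both gene tables of the series. Heart RNA was sequenced in male C57BL/6 mice, 3 each in the sham, TAC and TAC+PUE groups, labelled as 10 weeks old and killed at day 21 after surgery. Sham mice had the operation without constriction and saline injections, TAC mice had transverse aortic constriction, which loads the left ventricle with pressure, and saline, and TAC+PUE mice had the constriction and puerarin, a plant isoflavone, at 100 mg/kg per day by intraperitoneal injection starting 3 days ahead of surgery. All mice were wild type. No mice received puerarin without constriction, so an action of puerarin in an unloaded heart was not measured.

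Noradrenaline and adrenaline act on cardiomyocytes mainly through the beta-1 receptor, which raises cyclic AMP and contractile force, and through alpha-1 receptors, which signal by Gq and phospholipase C. Angiotensinogen is cut by renin and then by angiotensin-converting enzyme to angiotensin II, whose type 1 receptor constricts vessels and promotes growth of heart muscle and matrix. Atrial and B-type natriuretic peptides oppose both systems through the receptor guanylyl cyclase Npr1, whereas Npr3 removes the peptides from the circulation.

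The values are FPKM, fragments assigned to a gene per length of its transcripts and per size of the library. Levels can be compared between genes of a library, while comparisons between hearts also depend on the rest of each library. The summed FPKM ran from 187444 in TAC replicate 1 to 287728 in sham replicate 3. For each comparison of 3 hearts with 3, a limma model was run on log2(FPKM + 1), and p-values were adjusted by the method of Benjamini and Hochberg over all genes tested. An adjusted p under 0.05 was taken as passing. The added 1 FPKM makes log2 changes of genes at about that level too small. Heart muscle was present in every library, since the 8 cardiomyocyte markers summed to between 7500 and 12380 FPKM, and none of the 5 lung markers was in either table. The 13 mRNAs of the mitochondrial genome took 31.6 to 42.9% of the summed FPKM in sham hearts, 2.81 to 7.04% in TAC hearts and 14.2 to 26.0% in TAC+PUE hearts, and a pair of transcripts that carry ribosomal RNA sequence took 0.52 to 1.11% in sham hearts, 4.81 to 7.50% in TAC hearts and 1.11 to 2.52% in TAC+PUE hearts. FPKM are shares of a library. The genes tested had a median log2 change of -0.12 in TAC against sham, 0.24 in TAC+PUE against TAC and 0.11 in TAC+PUE against sham. The cause of these shifts from 0 was not tested. With the ribosomal transcripts removed and the rest rescaled these medians were 0.30, -0.01 and 0.26. With the mitochondrial ones removed too they were -0.22, 0.20 and -0.04. Median-ratio scaling, which sets medians near 0 by design, gave 0.02, -0.05 and -0.01. In whole-heart RNA, fewer cells of a type and less RNA per cell cannot be told apart.

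Promoter stretches are shown for 3 of the genes that passed a test, Adrb1 and Npr1 among those higher in TAC hearts and Ace among those higher in TAC+PUE hearts. Of the 9 genes, 6 were found in the RefSeq promoter table of build GRCm38.p6, by symbol, and Adra1a, Adra1d and Agtr1a were not. Each line gives the 150 bases before the annotated start, on the strand of the gene, and capitals mark matches on either strand to the searched motifs TATAAA for the TATA box, GGGCGG for the GC box, TGACGTCA for the cyclic AMP response element, CATTCC for the M-CAT element known from cardiac muscle genes and AGATAA for the GATA element.
Adrb1, chr19:56721967-56722116, plus strand: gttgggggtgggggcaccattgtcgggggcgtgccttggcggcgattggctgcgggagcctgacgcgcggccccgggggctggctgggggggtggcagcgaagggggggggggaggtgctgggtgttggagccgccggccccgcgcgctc
Npr1, chr3:90465867-90466016, minus strand: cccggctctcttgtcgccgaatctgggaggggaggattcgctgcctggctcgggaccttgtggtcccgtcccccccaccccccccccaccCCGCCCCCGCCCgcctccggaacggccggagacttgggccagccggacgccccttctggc
Ace, chr11:105967798-105967947, plus strand: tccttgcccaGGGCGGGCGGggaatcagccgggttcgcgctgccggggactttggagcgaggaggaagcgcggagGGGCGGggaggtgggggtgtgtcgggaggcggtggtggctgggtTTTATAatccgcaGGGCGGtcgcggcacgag
The stretch of Ace, the upstream of 2 windows listed for it, held 4 GC boxes, the first and second of them overlapping, and a TATA box on the opposite strand. That of Npr1 held 2 GC boxes and that of Adrb1 none of the 5 motifs. The full window of Adrb1, of 300 bases, held a GC box on the opposite strand at base -202, outside the stretch shown. Among 32851 windows of 300 bases in the table, 35.7% held the GC box, 13.6% the TATA box, 14.7% the CATTCC motif, 11.2% the AGATAA motif and 1.79% the cyclic AMP response element. In the full windows of the 6 genes found, no match to the last 3 of these was seen.

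Under pressure overload the adrenergic receptors moved apart: Adra1d, Adrb1 and Adra1b were higher in TAC than in sham hearts and Adra1a was lower, while Npr1 was also higher. The transcripts of Agtr1a, Agt, Ace and Npr3 did not pass the test. So 4 of the 9 genes were higher and 1 was lower, against 25.3% higher and 37.7% lower among all 11687 genes tested, and the median log2 change was 0.32 for the 9 genes and -0.12 for all. With puerarin added, Adra1d and Adrb1 were lower than in TAC hearts and Ace was higher, and the other 6 did not pass. Among all 11788 genes tested in that comparison 32.9% were higher and 5.45% lower, with a median of 0.24 against -0.09 for the 9 genes. With the ribosomal transcripts removed, 6 of the 9 genes passed as higher in TAC than in sham hearts and 0 as lower, beside 49.2% higher and 20.65% lower among all genes on that scale. With puerarin 0 passed there as higher than in TAC and 4 as lower, beside 19.7% and 18.7% of all genes. After median-ratio scaling the counts were 5 and 1 for constriction (36.1% and 34.9% of all genes) and 1 and 4 for puerarin (18.2% and 22.8%). The comparisons share libraries, TAC hearts entering the first and the second, so the same TAC values enter both with opposite sign. The shares of all genes in each comparison are also the background for the counts of the marker lists below.

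**Figure D1:**
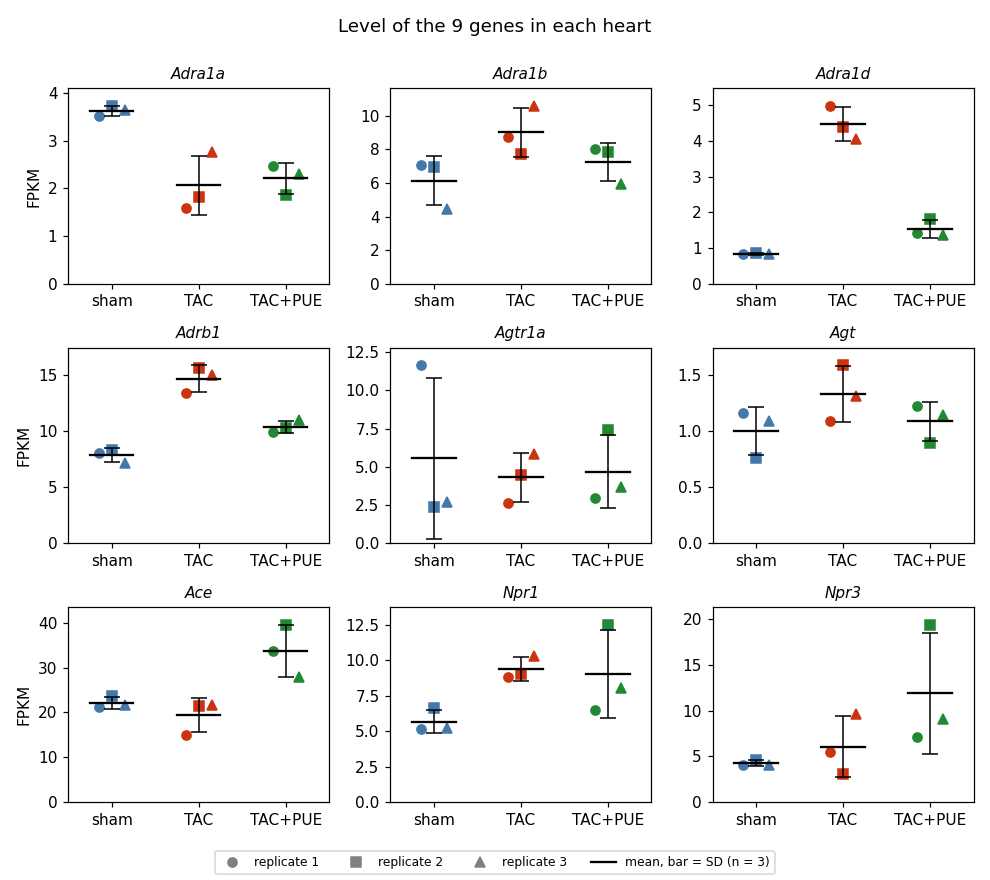
FPKM of each of the 9 genes (vertical axis, from 0) in the 3 hearts of each group, with symbols for the replicate number, a line at the mean and a bar of 1 SD. Adra1d and Adrb1 form 3 separate levels, sham lowest and TAC highest, Ace is set apart only in TAC+PUE hearts, and Agtr1a and Npr3 scatter widely within groups.

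Adra1d, the alpha-1 subtype known best from the smooth muscle of arteries, showed the largest change of the 9 genes in either of these comparisons. It stood at 0.824, 0.873 and 0.835 FPKM in the sham hearts, at 4.98, 4.40 and 4.05 in the TAC hearts and at 1.41, 1.81 and 1.36 in the TAC+PUE hearts. The groups did not overlap anywhere, with TAC+PUE between the others and closer to sham. In ratios of the mean FPKM, TAC was 5.30 times sham and TAC+PUE was 0.342 times TAC. The log2 change was 1.57 (SE 0.11, adjusted p = 2.04e-05) for TAC against sham and fell by 1.12 (SE 0.14, adjusted p = 0.0032) for TAC+PUE against TAC. It ranked 92 of 11687 genes from the highest change in the first comparison, and 11750 of 11788 in the second. Both calls held under all 16 alternatives in which the gene was tested, with log2 changes from 0.70 to 2.27 and from -1.50 to -0.54. Every sham heart was below 1 FPKM, so in TAC against sham the gene met the filter of 1 FPKM only through the TAC hearts, where it was high. In TAC+PUE against sham it likewise met the filter only through the TAC+PUE hearts, where it was higher, so neither call is independent of the filter. Adra1d remained above sham in TAC+PUE hearts, by 0.45 (SE 0.092, adjusted p = 0.021), a call lost without any 1 of the 3 sham hearts (0.44 to 0.46, adjusted p = 0.053 to 0.098). RefSeq lists predicted genes overlapping Adra1d (Gm14285 and Gm39938), and the sources used here do not say if fragments were counted by strand.

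The 8 pericyte and smooth muscle markers, among the cells that express Adra1d in vessels, summed to 173 to 184 FPKM in sham hearts, 130 to 176 in TAC hearts and 157 to 225 in TAC+PUE hearts. The largest parts of the sum were Acta2 (52.0, 36.4 and 64.6 FPKM) and Abcc9 (59.0, 25.8 and 36.1) in the group means, and both passed as lower in TAC against sham (-0.54 and -1.19, adjusted p = 0.020 and 1.65e-04). Myh11 (0.53), Tagln (0.76), Cspg4 (0.60) and Kcnj8 (0.54) passed as higher there, as Adra1d did, the remaining 2 did not pass, and the list's median was 0.39 beside -0.12 for all genes. In TAC+PUE against TAC none of the 8 passed as higher, Kcnj8 passed as lower (-0.62, adjusted p = 0.013) and 7 did not pass. The cardiomyocyte markers summed to 7500 to 8399, 11175 to 12380 and 8543 to 8773 FPKM, highest in TAC as Adra1d was. The largest parts of that sum were Myh6 (2504, 3489 and 2601 FPKM) and Actc1 (2073, 3360 and 2617) in the group means. Of the 8 cardiomyocyte markers 5 were higher, 2 lower (Ttn and Ryr2) and 1 did not pass in TAC against sham. In TAC+PUE against TAC 1 was higher (Ttn), 3 lower and 4 did not pass. The part of the cardiomyocyte markers in the receptor changes was not tested. None of the smooth muscle or cardiomyocyte markers was listed at 0 in any heart.

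Adra1a, the alpha-1A subtype, which in mouse cardiomyocytes is linked to survival under load, moved the other way. Its level was 3.52, 3.72 and 3.63 FPKM in sham hearts, 1.59, 1.82 and 2.77 in TAC hearts and 2.47, 1.85 and 2.30 in TAC+PUE hearts. Every constricted heart was below every sham heart, while the TAC and TAC+PUE hearts overlapped. TAC against sham fell by 0.61 (SE 0.15, adjusted p = 0.0047), TAC+PUE against sham fell by 0.53 (SE 0.097, adjusted p = 0.015), and TAC+PUE against TAC differed by 0.08 (95% interval -0.29 to 0.46, adjusted p = 0.72). With the ribosomal transcripts removed the difference of TAC from sham was -0.25 and no longer passed (adjusted p = 0.10), and the TAC+PUE difference from sham no longer passed without sham replicate 1 or 3 (adjusted p = 0.066 and 0.078).

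Adra1b, the most abundant alpha-1 transcript in these hearts, read 7.05, 6.92 and 4.46 FPKM in sham hearts, 8.76, 7.72 and 10.6 in TAC hearts and 8.02, 7.81 and 5.96 in TAC+PUE hearts. The TAC hearts lay above all sham hearts but overlapped with TAC+PUE, and sham replicate 3 was the lowest of the 9. TAC exceeded sham by 0.50 on the log2 scale (SE 0.17, adjusted p = 0.028), a call lost without sham replicate 3 (0.32, adjusted p = 0.14), TAC replicate 1 (0.51, adjusted p = 0.068) or TAC replicate 3 (0.39, adjusted p = 0.096), and with both ribosomal and mitochondrial transcripts removed (0.38, adjusted p = 0.063). TAC+PUE against TAC was -0.28 (adjusted p = 0.21), and it passed after median-ratio scaling (-0.59, adjusted p = 0.017) and with the ribosomal transcripts removed (-0.56, adjusted p = 0.023).

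The make-up of the alpha-1 receptor transcripts can be read within each library, where the scaling of the library cancels. Adra1d made up 7.24, 7.59 and 9.36% of the summed FPKM of the 3 subtypes in sham, 32.5, 31.6 and 23.3% in TAC and 11.9, 15.8 and 14.2% in TAC+PUE hearts. Adra1a made up 30.9, 32.3 and 40.7%, then 10.4, 13.0 and 15.9%, then 20.7, 16.1 and 23.9%. For both subtypes the 3 groups did not overlap, and these shares in TAC+PUE hearts lay between those of sham and TAC. Adra1b made up most of the sum or close to it throughout, 49.95 to 61.87%, 55.4 to 60.8% and 61.90 to 68.1%. Its share was thus not in between: every TAC+PUE heart was above every sham and TAC heart, the nearest sham heart only narrowly. The summed level itself was 10.6 ± 1.46 FPKM in sham hearts, 15.6 ± 1.74 in TAC hearts and 11.003 ± 1.21 in TAC+PUE hearts (mean ± SD, n = 3). In a two-sided exact permutation test of 3 hearts against 3 the smallest p is 0.1, which each difference in the Adra1d and Adra1a shares reached (adjusted p = 0.125 over 15 such tests), so these shares could not pass. The Adra1b share also reached it for TAC+PUE against TAC and against sham, but not for TAC against sham (exact p = 0.9).

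Adrb1, the main receptor for noradrenaline on cardiomyocytes, gave groups that were tight and set apart. It read 8.01, 8.33 and 7.17 FPKM in sham hearts, 13.4, 15.7 and 15.0 in TAC hearts and 9.86, 10.3 and 10.96 in TAC+PUE hearts. The 3 groups did not overlap, with TAC+PUE again in between. TAC was 1.87 times sham in mean FPKM, a log2 change of 0.83 (SE 0.12, adjusted p = 2.51e-04) that passed under all 17 alternatives. TAC+PUE was 0.706 times TAC in mean FPKM, a log2 change of -0.46 (SE 0.14, adjusted p = 0.025). That second call was lost on leaving out 5 of the 6 hearts in turn, all but TAC replicate 1 (-0.50 to -0.42, adjusted p = 0.050 to 0.10). TAC+PUE hearts exceeded sham by 0.36 (SE 0.088, adjusted p = 0.033), a call lost under 9 of 17 alternatives.

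Adrb3 and the alpha-2 receptors Adra2a, Adra2b and Adra2c were in neither table, which list a gene only where a group mean is at least 0.50 FPKM. Neither table listed the sympathetic nerve markers Th, Npy and Chga, and Dbh was between 0.19 and 1.12 FPKM.

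**Figure D2:**
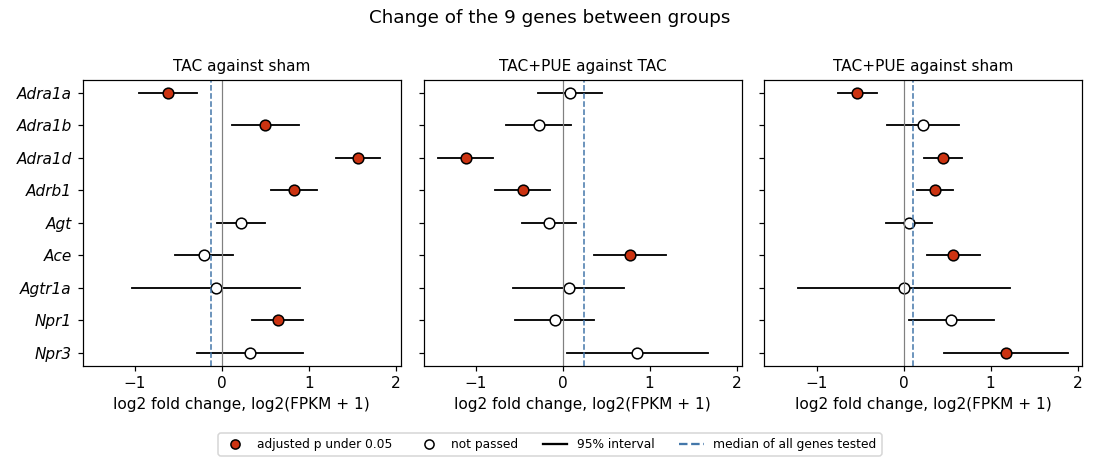
Log2 fold change of each gene (horizontal axis, log2(FPKM + 1) scale) with its 95% interval in the 3 comparisons. Red points passed at an adjusted p under 0.05, and the dashed line is the median of all genes tested. In TAC against sham the points run from -0.61 for Adra1a to 1.57 for Adra1d, and in TAC+PUE against TAC from -1.12 for Adra1d to 0.86 for Npr3, whose interval is among the widest.

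Downstream of these receptors, 26 of 31 listed genes of adrenergic coupling (G proteins, adenylyl cyclases, kinases, arrestins, phosphodiesterases and regulators) were tested. In TAC hearts 5 were higher, 12 lower and 9 did not pass, beside 25.3% higher and 37.7% lower among all genes. With puerarin 11 were higher than in TAC, 1 lower and 14 did not pass, beside 32.9% and 5.45% of all genes. The split depended on the scaling: with the ribosomal transcripts removed it was 12 higher and 4 lower of 25 tested for TAC against sham, and 9 and 7 of 26 for TAC+PUE against TAC. The median log2 change of the list was -0.11 and 0.31, beside -0.12 and 0.24 for all genes.

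Adcy5, one of the main cardiac adenylyl cyclases, was the single listed coupling gene that was lower with puerarin. It went from 11.9 ± 1.60 FPKM in sham to 26.3 ± 0.76 in TAC and 16.0 ± 1.998 in TAC+PUE (mean ± SD, n = 3), log2 changes of 1.09 (adjusted p = 7.93e-05) and -0.69 (adjusted p = 0.0060). The listed regulators of G protein signalling, Rgs2, Rgs4 and Rgs5, which switch off Gq and Gi, were lower in TAC than in sham hearts. Rgs4 fell by 1.46 (adjusted p = 2.60e-05) and was 0.80 higher with puerarin (adjusted p = 0.0039). Rgs5, abundant in pericytes, fell by 1.40 (adjusted p = 7.70e-05) and was 0.82 higher with puerarin (adjusted p = 0.0089), and Rgs2 fell by 0.91 (adjusted p = 0.0014) and was 0.81 higher (adjusted p = 0.0089). Plcb4, a phospholipase C driven by Gq, fell by 1.03 (adjusted p = 1.21e-04) and was 0.85 higher with puerarin (adjusted p = 0.0042). Arrb1, the arrestin that uncouples activated receptors, did not pass in TAC (0.20, adjusted p = 0.52) and was 0.95 higher with puerarin (adjusted p = 0.0042). Rgs5 no longer passed in TAC+PUE against TAC after median-ratio scaling (0.47, adjusted p = 0.053).

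In the angiotensin system, Ace was the gene that set the TAC+PUE hearts apart. Ace, made mainly by endothelium, turns angiotensin I into angiotensin II and also breaks down bradykinin. It read 21.1, 23.7 and 21.8 FPKM in sham hearts, 15.0, 21.4 and 21.7 in TAC hearts and 33.6, 39.6 and 28.0 in TAC+PUE hearts. The sham and TAC hearts overlapped, and every TAC+PUE heart was above all 6 others. The mean in TAC+PUE hearts was 1.74 times that in TAC, a log2 change of 0.77 (SE 0.19, adjusted p = 0.0098), and it exceeded sham by 0.57 (SE 0.13, adjusted p = 0.028). TAC against sham was -0.20 (95% interval -0.54 to 0.13, adjusted p = 0.26), with the sign turned by removal of the ribosomal transcripts (0.28, adjusted p = 0.085) and a call as lower with ribosomal and mitochondrial transcripts removed (-0.33, adjusted p = 0.022). The rise with puerarin over TAC was smaller and did not pass with only the ribosomal transcripts removed (0.47, adjusted p = 0.052), and the difference from sham was lost without any 1 sham heart (0.54 to 0.62, adjusted p = 0.054 to 0.11), after median-ratio scaling (0.43, adjusted p = 0.056) and with ribosomal and mitochondrial transcripts removed (0.39, adjusted p = 0.057). Among all 11931 genes tested between TAC+PUE and sham, 14.6% were higher and 2.7% lower, and of the 9 genes 4 were higher (Adra1d, Adrb1, Ace and Npr3), 1 was lower (Adra1a) and 4 did not pass. Of the 4 higher genes, Adra1d alone still passed after median-ratio scaling and with both kinds of transcript removed, while Adrb1, Ace and Npr3 did not. Adra1d had entered this comparison through the TAC+PUE hearts only, as stated above.

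Endothelial markers were measured beside Ace. The 8 of them summed to 235 to 253 FPKM in sham hearts, 189 to 235 in TAC hearts and 225 to 275 in TAC+PUE hearts, none at 0, and their part in the Ace values was not tested. Between TAC and sham, 2 were higher in TAC (Egfl7 at 1.13 and Tie1 at 0.59), 5 were lower and 1 did not pass, with a median of -0.53. Between TAC+PUE and TAC, 4 were higher, 1 lower and 3 did not pass, and between TAC+PUE and sham 1 was higher and 7 did not pass. RefSeq lists the predicted gene Gm11651 overlapping Ace.

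Agtr1a, the type 1 angiotensin receptor, known in the mouse heart mainly from fibroblasts and pericytes, was uneven within groups. It read 11.6, 2.33 and 2.66 FPKM in sham hearts, 2.60, 4.43 and 5.85 in TAC hearts and 2.95, 7.39 and 3.67 in TAC+PUE hearts. Sham replicate 1 was above every other heart and the other sham hearts were at the low end, so the groups overlapped. TAC against sham was -0.07 (95% interval -1.03 to 0.90, adjusted p = 0.90) and TAC+PUE against TAC was 0.07 (95% interval -0.57 to 0.71, adjusted p = 0.87), widths within which a change of either sign remained possible. Without sham replicate 1, TAC against sham was 0.55 (adjusted p = 0.057). Above 3 FPKM, 8 genes exceeded both other sham hearts more than 2 times in sham replicate 1, 23 in sham replicate 2 and 5 in sham replicate 3. By this count, which covers upward excess only, sham replicate 1 lay between the others. The cause of its Agtr1a value was not tested. The fibroblast markers, 8 of 8 measured with none at 0, summed to 183 to 187 FPKM in sham hearts, 271 to 298 in TAC hearts and 295 to 366 in TAC+PUE hearts. In TAC against sham Col1a1 (25.3 to 119 FPKM) and Col1a2 (15.7 to 57.6) were among the 3 that passed as higher, Dcn (-0.62) and Lum (-1.11) passed as lower and 3 did not pass, with a list median of -0.13 beside -0.12 for all genes. In TAC+PUE against TAC 3 were higher, 1 lower and 4 did not pass, and the part of these markers in the Agtr1a values was not tested.

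Agt, the substrate of the whole cascade, was the lowest of the 9 genes in TAC and TAC+PUE hearts. It read 1.16, 0.754 and 1.09 FPKM in sham hearts, 1.09, 1.58 and 1.31 in TAC hearts and 1.22, 0.889 and 1.15 in TAC+PUE hearts. The 3 groups overlapped. TAC against sham was 0.22 (95% interval -0.06 to 0.49, adjusted p = 0.15), which passed after median-ratio scaling (0.31, adjusted p = 0.038) and with the ribosomal transcripts removed (0.49, adjusted p = 0.0021), and TAC+PUE against TAC was -0.16 (95% interval -0.46 to 0.15, adjusted p = 0.39), which passed as lower under the same settings (-0.35, adjusted p = 0.046, and -0.33, adjusted p = 0.049).

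Of 16 further renin-angiotensin genes, 9 were tested in TAC against sham, where 1 was higher, 6 lower and 2 did not pass, beside 25.3% higher and 37.7% lower among all genes. In TAC+PUE against TAC, 8 were tested, of which 4 were higher, 1 lower and 3 did not pass, beside 32.9% and 5.45% of all genes. With the ribosomal transcripts removed the first split was 2 higher and 2 lower of 8 tested, beside 49.2% and 20.65% of all genes. The list's median of -0.59 became -0.15, while that of all genes went from -0.12 to 0.30. Ren1, Agtr1b, Agtr2, Mas1, Ctsg and Hsd11b2 were in neither table and were not analysed here.

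Cma1, the mast cell chymase that can make angiotensin II without Ace, was the 1 listed gene that passed as higher in TAC hearts and the 1 that passed as lower with puerarin. It was 0.69 ± 0.083 FPKM in sham hearts, 2.16 ± 0.72 in TAC hearts and 0.44 ± 0.34 in TAC+PUE hearts (mean ± SD, n = 3), log2 changes of 0.88 (adjusted p = 7.92e-04) and -1.14 (adjusted p = 0.0038). Cma1 met the filter of 1 FPKM only through the TAC hearts, where it was high, so both calls are not independent of the filter. In TAC+PUE against sham it was below the filter. Lnpep, a membrane peptidase that binds angiotensin IV, had the largest fall, by 1.64 (adjusted p = 6.10e-05), and was 1.31 higher with puerarin than in TAC (adjusted p = 0.0033). Its mean level was 45.1 ± 2.63 FPKM in sham hearts, 14.1 ± 3.65 in TAC hearts and 36.1 ± 7.53 in TAC+PUE hearts (mean ± SD, n = 3). Atp6ap2, the prorenin receptor, fell by 0.73 in TAC (adjusted p = 0.0047) and was 0.84 higher with puerarin (adjusted p = 0.0081), and the first of these did not pass with the ribosomal transcripts removed (-0.32, adjusted p = 0.084). Prep, a peptidase that forms angiotensin 1-7, fell by 0.73 (adjusted p = 0.0011) and was 0.65 higher with puerarin (adjusted p = 0.010). Mme, neprilysin, which degrades natriuretic peptides and angiotensin, fell by 0.79 in TAC (adjusted p = 1.45e-04) and was below the filter in TAC+PUE against TAC. In TAC against sham it met the filter only through the sham hearts, where it was high. Nr3c2, the mineralocorticoid receptor, fell by 0.59 (adjusted p = 0.0086) and was 0.44 higher with puerarin (adjusted p = 0.047), and neither passed with the ribosomal transcripts removed (-0.22, adjusted p = 0.18, and 0.21, adjusted p = 0.25). For Nr3c2 the second call was also lost without each of TAC replicates 1 and 2 and each TAC+PUE heart (0.35 to 0.51, adjusted p = 0.052 to 0.20).

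**Figure D3:**
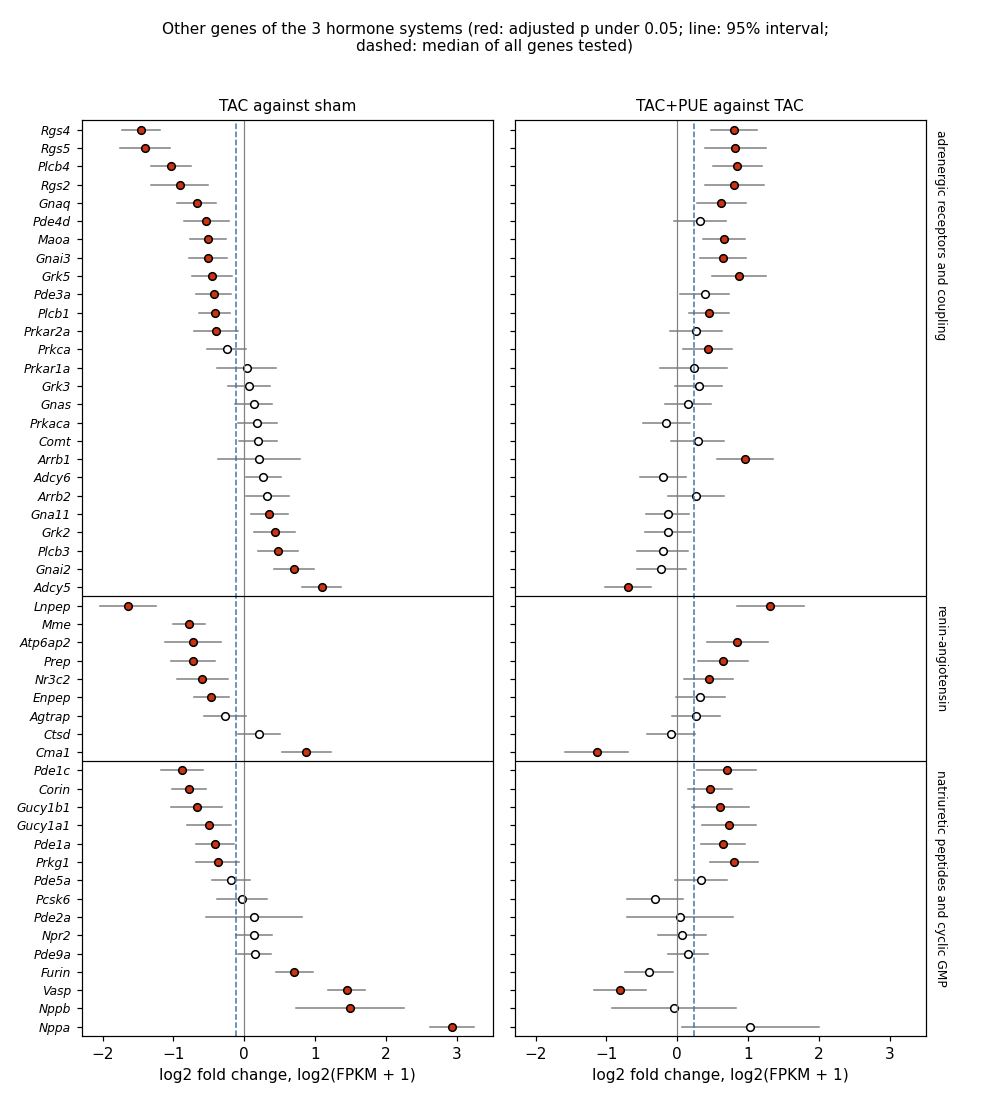
Log2 fold change (horizontal axis, log2(FPKM + 1) scale) with its 95% interval for the other genes of the adrenergic, renin-angiotensin and natriuretic lists, each list sorted by its change in TAC against sham. Red points passed at an adjusted p under 0.05. Genes at the top of each list, such as Rgs4 (-1.46) and Lnpep (-1.64), lie right of 0 in TAC+PUE against TAC, and Adcy5, Cma1 and Vasp lie left of it. The TAC libraries enter both panels.

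Among the natriuretic peptide receptors, Npr1 was higher under overload with and without puerarin in its means, but passed the test against sham only without puerarin. Npr1 is the guanylyl cyclase through which both peptides act. It read 5.18, 6.62 and 5.23 FPKM in sham hearts, 8.79, 9.07 and 10.3 in TAC hearts and 6.53, 12.5 and 8.04 in TAC+PUE hearts. All TAC hearts were above all sham hearts, and TAC+PUE hearts spread over the range of both. TAC against sham was 0.64 (SE 0.13, adjusted p = 0.0017), a ratio of mean FPKM of 1.65, and it passed under all 17 alternatives (0.43 to 1.08). TAC+PUE against TAC was -0.09 (95% interval -0.55 to 0.36, adjusted p = 0.74) and TAC+PUE against sham 0.55 (SE 0.21, adjusted p = 0.10), a difference that passed with the ribosomal transcripts removed (0.71, adjusted p = 0.049) and without TAC+PUE replicate 1 (0.73, adjusted p = 0.035).

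Npr3, the clearance receptor, which in the mouse heart marks the endocardium, was highest in TAC+PUE hearts. It read 4.03, 4.67 and 4.10 FPKM in sham hearts, 5.46, 3.09 and 9.69 in TAC hearts and 7.16, 19.4 and 9.12 in TAC+PUE hearts. Every TAC+PUE heart was above every sham heart, while the TAC hearts ran from below sham into the TAC+PUE range. TAC+PUE against sham was 1.18 (SE 0.30, adjusted p = 0.039), a ratio of mean FPKM of 2.79, and TAC+PUE against TAC was 0.86 (95% interval 0.05 to 1.67, adjusted p = 0.086). TAC against sham was 0.32 (95% interval -0.29 to 0.93, adjusted p = 0.33). These calls turned on single hearts and on the scaling. TAC against sham passed without TAC replicate 2 (0.66, adjusted p = 0.019) and with the ribosomal transcripts removed (0.73, adjusted p = 0.036), and TAC+PUE against TAC passed on leaving out TAC replicate 3 (1.21, adjusted p = 0.027) or TAC+PUE replicate 1 (1.13, adjusted p = 0.041). The call against sham was lost under 7 alternatives: without any 1 sham heart or TAC+PUE replicate 3 (1.15 to 1.30, adjusted p = 0.069 to 0.13), with a pseudocount of 5 (0.80, adjusted p = 0.055), after median-ratio scaling (1.05, adjusted p = 0.058) and with ribosomal and mitochondrial transcripts removed (1.02, adjusted p = 0.052). The ratio of Npr3 to Npr1 within a heart was 0.76 ± 0.044 in sham hearts, 0.63 ± 0.30 in TAC hearts and 1.26 ± 0.25 in TAC+PUE hearts (mean ± SD, n = 3), the TAC+PUE hearts lying above all others at the smallest exact permutation p of 0.1. RefSeq lists the predicted gene Gm5144 overlapping Npr3.

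Transcripts of the atrium were uneven among the constricted hearts, as Npr3 was, and their part in the Npr3 values was not tested. Myl7, the atrial myosin light chain, was 1.07, 1.06 and 0.86 FPKM in sham hearts, 79.8, 1.60 and 198 in TAC hearts and 27.4, 708 and 245 in TAC+PUE hearts. Within TAC and within TAC+PUE, the heart with the most Myl7 had the most Npr3 and the heart with the least Myl7 had the least. Npr1 and Agtr1a shared this order in TAC+PUE hearts and were also highest in TAC replicate 3. Within TAC both were lowest in replicate 1, whereas Myl7 was lowest in replicate 2. The part of atrial tissue in these values was not tested either. The 6 atrial markers, of which Sln and Bmp10 were at 0 in at least 1 heart, summed to 6.11 to 7.08 FPKM in sham hearts, 10.1 to 321 in TAC hearts and 52.8 to 1055 in TAC+PUE hearts. The endocardial markers Cytl1 and Plvap, the 2 of 4 that were in the tables, summed to 6.78 to 8.30, 21.0 to 34.0 and 22.0 to 78.1 FPKM. The fat markers summed to at most 8.03 FPKM, in TAC replicate 3, and each of the 4 in the tables was at 0 in at least 1 heart.

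With only hearts below 100 FPKM of Myl7, an alternative added after seeing the data, 3 sham, 2 TAC and 1 TAC+PUE heart were left. For TAC against sham this leaves out TAC replicate 3, and Npr3 was -0.033 (adjusted p = 0.89), Npr1 0.58 (adjusted p = 0.0054), Adra1d 1.62 (adjusted p = 1.29e-04) and Adrb1 0.81 (adjusted p = 9.34e-04). The lone TAC+PUE heart has no spread of its own, so its differences are given as values of that heart and show nothing about the group. Against the TAC hearts left they were 0.67 for Npr3, 0.87 for Ace, -1.24 for Adra1d and -0.51 for Adrb1, and against sham 0.63 for Npr3.

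**Figure D4:**
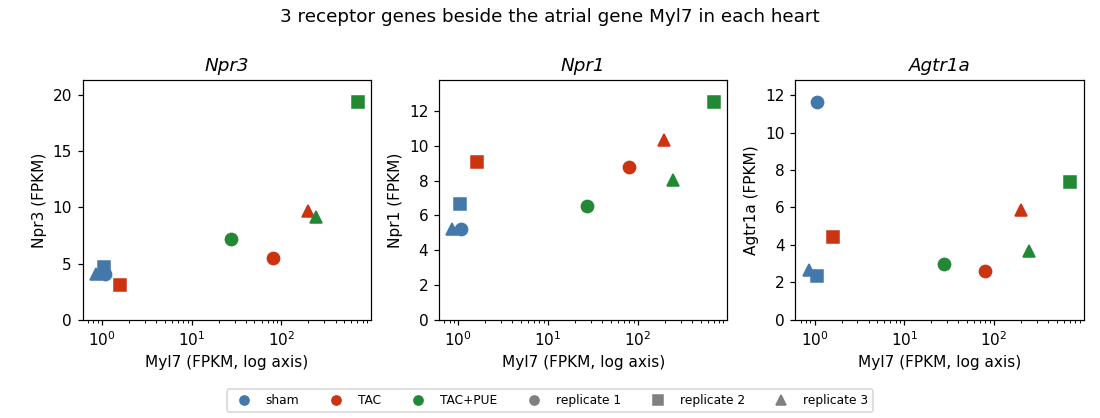
FPKM of Npr3, Npr1 and Agtr1a (vertical axes, from 0) beside that of the atrial gene Myl7 (log axis) in the 9 hearts, coloured by group with symbols for the replicate number. Npr3 is highest, at 19.4 FPKM, in the TAC+PUE heart with the most Myl7 (708 FPKM), and sham replicate 1 is the highest heart for Agtr1a (11.6 FPKM) at a Myl7 of 1.07 FPKM.

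A non-coding transcript of Npr3 appeared in the authors' list of lncRNA transcripts higher in TAC than in sham hearts. It read 0.275, 0.451 and 0.242 FPKM in sham and 1.83, 0.920 and 1.43 in TAC hearts, which is 5.89 to 9.66% and 14.8 to 33.5% of the gene's FPKM. The groups did not overlap, as was true of all 408 transcripts in that list, so these values are a description of a selected transcript with no test.

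The ligands of these receptors and the genes around cyclic GMP gave 15 of 16 tested, Nppc being in neither table. In TAC hearts 4 were higher, 6 lower and 5 did not pass, beside 25.3% higher and 37.7% lower among all genes. In TAC+PUE against TAC 6 were higher, 1 lower and 8 did not pass, beside 32.9% and 5.45% of all genes. With the ribosomal transcripts removed the first split became 7 higher and 1 lower, beside 49.2% and 20.65% of all genes. The second became 3 and 3, beside 19.7% and 18.7%. The median log2 change of the list was -0.04 and 0.34, beside -0.12 and 0.24 for all genes.

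Nppa, the atrial natriuretic peptide, rose by 2.93 in TAC (adjusted p = 4.62e-06), from 72.2 ± 2.41 FPKM in sham to 562 ± 74.8 (mean ± SD, n = 3). In TAC+PUE hearts it was 1420 ± 1170 FPKM, 1.03 above TAC (adjusted p = 0.086), and it passed in that comparison without TAC+PUE replicate 1 (1.52, adjusted p = 0.016). Nppb, the B-type peptide, rose by 1.49 in TAC (adjusted p = 0.0036), from 79.8 ± 1.07 to 257 ± 156 FPKM, and was 229 ± 86.5 FPKM with puerarin, a log2 difference of -0.05 (adjusted p = 0.94). Neither peptide passed as lower with puerarin. The 15 listed genes tested, these peptides among them, summed to 821, 1137 and 885 FPKM in TAC replicates 1 to 3, beside Myl7 at 79.8, 1.60 and 198. In TAC+PUE replicates 1 to 3 the sums were 909, 3214 and 1203 FPKM, beside Myl7 at 27.4, 708 and 245. The part of atrial tissue in the Nppa and Nppb values was not tested. Corin, the protease that activates both peptides, fell by 0.78 in TAC (adjusted p = 1.85e-04) and was 0.46 higher with puerarin (adjusted p = 0.026), and with the ribosomal transcripts removed neither passed (-0.29, adjusted p = 0.053, and 0.15, adjusted p = 0.36). Vasp, an actin regulator phosphorylated by the kinases of cyclic GMP and cyclic AMP, rose by 1.44 (adjusted p = 2.56e-05) and was 0.80 lower with puerarin (-0.80, adjusted p = 0.0056). Prkg1, the cyclic GMP-dependent kinase, fell by 0.38 (adjusted p = 0.033) and was 0.80 higher with puerarin (adjusted p = 0.0043), the first of these lost without any 1 sham heart (adjusted p = 0.061 to 0.11) and at -0.03 with the ribosomal transcripts removed. Pde1c, a phosphodiesterase that breaks down both cyclic nucleotides, fell by 0.89 (adjusted p = 3.09e-04) and was 0.70 higher with puerarin (adjusted p = 0.016), a call lost after median-ratio scaling (0.44, adjusted p = 0.077).

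The genes whose log2 profile over the 9 hearts was closest to each receptor, by root mean square difference after centring, were found among 5668 or 5669 genes with a mean of at least 5 FPKM. For Adra1d they were Jph2 (0.15), a junctophilin of cardiac dyads, Spr (0.15), which makes a cofactor of nitric oxide synthase, and Vasp (0.16), beside a spread of 0.66 for Adra1d itself. For Adrb1 they were Gpsm1, Fbrsl1 and S100a13, at 0.07 to 0.08 beside 0.35. For Adra1a they were Cmss1 (0.05), Decr1 (0.09), an enzyme of fatty acid oxidation, and Tbc1d4 (0.12), a regulator of glucose transport, beside 0.31. Ace was closest to F2r (0.09), the thrombin receptor, Dynll1 (0.09) and Cpe (0.10), beside 0.38. Npr1 was closest to Grasp (0.06) and the ribosomal protein genes Rpl18 and Rpl34 (0.07 each), beside 0.36, and Adra1b to Hlx (0.11), Klc4 (0.14) and Gpr137 (0.14), beside 0.29. These distances are descriptions over the same 9 libraries.

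By mean FPKM the order of the 9 genes in sham hearts was Ace (22.2), Adrb1 (7.84), Adra1b (6.14), Npr1 (5.68), Agtr1a (5.54), Npr3 (4.26), Adra1a (3.62), Agt (1.001) and Adra1d (0.84). Among neighbours in this order, Adra1b and Npr1, Npr1 and Agtr1a, Agtr1a and Npr3, and Agt and Adra1d overlapped in their hearts, and the others did not. In TAC hearts Adra1d (4.47) had passed Agtr1a (4.29), Adra1a (2.06) and Agt (1.33), its lowest heart (4.05) being above the highest of Adra1a (2.77) and Agt (1.58) but not of Agtr1a (5.85). In TAC+PUE hearts Adra1d (1.53) was between Adra1a (2.21) and Agt (1.09), and Npr3 (11.9) and Adrb1 (10.4) followed Ace (33.7).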

How the data were processed

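The authors trimmed the reads of a stranded, paired-end library, aligned them with Hisat2, quantified transcripts with StringTie and took expression values with Ballgown. The submitters' processing notes name build mm9. The deposited gene tables give FPKM per the file headers, where the methods name TPM, so the test set for the methods' values was run on FPKM. One table holds sham and TAC, the other TAC and TAC+PUE, with identical TAC values, and TAC+PUE against sham used the 13646 genes in both. The tables' columns of fold changes and p-values by the authors were not used, and of the deposited lists of lncRNA transcripts 1 was used, for a transcript of Npr3. Depth is unknown: of 741 low genes at most 6 shared a ratio between libraries (within 0.1%), so whole reads were not recovered. No gene of the 9 was at 0.

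Limma 3.58.1 (R 4.3.3) with eBayes trend was fitted on log2(FPKM + 1) to genes reaching 1 FPKM in 3 or more of 6 libraries, two-sided. Each library is 1 mouse. On simulated data it called 37.3, 97.0 and 100% of changes of 0.5, 1 and 2 on the log2 scale among 11687 genes (TAC against sham), 17.9, 88.1 and 100% among 11788 (TAC+PUE against TAC) and 49.3, 97.0 and 100% among 11931 (TAC+PUE against sham). Only 67, 67 and 66 genes carried these changes in each simulation, with normal noise independent between genes and no shift in library make-up. The rates hold for that setting and not for data where as many genes pass as here. Alternatives were pseudocounts of 0.1 and 5, no filter, a filter of 5 FPKM, median-ratio scaling, removal of ribosomal or of ribosomal and mitochondrial transcripts, no trend, a joint fit, a replicate block, and leaving out each library. Ratios within libraries were tested with exact permutation tests (Python 3.11.15). The members, gene lists and tests were chosen with earlier results of these data known. Named were the 9 genes, the 6 genes of each pathway list with the largest passing changes in the first and second comparisons, the 3 closest profiles for each of the 9 that passed there, marker lists by sums and counts, and, outside that rule, Dbh, single markers, that transcript and genes absent from the tables. A gene of the adrenergic list is not reported here.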

Additional observations from a re-analysis of the deposited data

How the results depend on the processing

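The tests rest on 3 hearts a group, depth is unknown, and FPKM depend on the mitochondrial and ribosomal share of each library. Of the 9 genes, 5 passed in TAC against sham, 3 under the filter of 5 FPKM and 4 to 6 on leaving out hearts. Under that filter Adra1a, Adra1d, Agtr1a and Agt were not tested in any comparison, nor was Npr3 in TAC against sham. The smaller member counts under it come from such untested genes and not from calls that failed. Among all genes tested under it, 29.6% were higher and 36.4% lower in TAC against sham. The count lower there, 1, was 0 under that filter and with ribosomal transcripts removed, and 2 with ribosomal and mitochondrial transcripts removed. In TAC+PUE against TAC 3 passed, 5 after median-ratio scaling. The count higher, 1, was 0 with ribosomal transcripts removed, and the count lower, 2, was 1 under the filter of 5 FPKM and with Myl7 below 100 FPKM, and 4 after median-ratio scaling and with ribosomal transcripts removed. In TAC+PUE against sham 5 passed (4 higher, 1 lower). It was 3 under the filter of 5 FPKM (0 lower), 2 after median-ratio scaling (1 higher), 2 with ribosomal and mitochondrial transcripts removed (1 higher), and 2 with Myl7 below 100 FPKM (2 higher, 0 lower), where 1 TAC+PUE heart is left and assumed to vary like the other group.

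On leaving out each heart in turn the count higher in TAC+PUE against TAC ran from 1 to 2 and the count lower from 1 to 2, and in TAC+PUE against sham 0 to 6 passed (0 to 5 higher, 0 to 1 lower), 0 without sham replicate 1 or 3. Agtr1a ran from -0.41 to 0.55, -0.25 to 0.29 and -0.34 to 0.62 over the 3 comparisons, Npr3 in TAC against sham from -0.033 to 0.66, Adra1a and Npr1 in TAC+PUE against TAC from -0.028 to 0.24 and -0.33 to 0.091, and Agt in TAC+PUE against sham from -0.030 to 0.13.

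Signs turned only for values that did not pass. For Agtr1a, TAC against sham was 0.057 after median-ratio scaling and 0.33 with ribosomal transcripts removed. TAC+PUE against TAC was -0.21 and -0.18 under these, and -0.16 with Myl7 below 100 FPKM. TAC+PUE against sham was -0.044 with a pseudocount of 5, -0.12 after median-ratio scaling, -0.15 with ribosomal and mitochondrial transcripts removed and -0.44 with Myl7 below 100 FPKM. Ace in TAC against sham was 0.28 with ribosomal transcripts removed, and Npr3 was -0.033 with Myl7 below 100 FPKM. Adra1a in TAC+PUE against TAC was -0.15 after median-ratio scaling and -0.13 with ribosomal transcripts removed. Agt in TAC+PUE against sham was -0.015 after median-ratio scaling and -0.031 with ribosomal and mitochondrial transcripts removed. The cause was not tested.

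Over all genes the counts higher and lower were 2955 and 4410 for TAC against sham (5737 and 2408 with ribosomal transcripts removed, 1805 and 2223 under the filter of 5 FPKM). For TAC+PUE against TAC they were 3883 and 642 (2111 and 2648 after median-ratio scaling, 2309 and 2201 with ribosomal transcripts removed, 3927 and 1036 with mitochondrial ones removed too, 1735 and 463 under the filter, 2578 to 4312 and 268 to 840 without 1 heart). For TAC+PUE against sham they were 1738 and 322 (883 and 763 after median-ratio scaling, 3686 and 144 with ribosomal transcripts removed, 884 and 713 with mitochondrial ones removed too, 863 and 211 under the filter, 1437 and 178 in the joint fit, 895 and 201 with Myl7 below 100 FPKM, 2552 and 529 with the block, 361 to 2682 and 40 to 1019 without 1 heart).

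Deviations of same-numbered hearts had correlations of -0.02, 0.00 and 0.06 in TAC against sham, and -0.28, -0.11 and 0.20 in TAC+PUE against TAC. In TAC+PUE against sham they were 0.19, 0.31 and 0.04, all above 0. There the replicate block gave 2552 higher and 529 lower over all genes, against 1738 and 322 without it. Correlations between different-numbered hearts were not taken as a reference, so whether the numbers pair the mice was not settled. With the replicate block 5, 3 and 6 of the 9 genes passed in these comparisons. Npr1 in TAC+PUE against sham was the 1 gene of the 9 that changed its call (0.55, adjusted p = 0.026).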
